A study of Mus musculus with 8 samples.

Results

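The genes described here mark the cells that wrap blood vessels, pericytes and vascular smooth muscle. The 10 members are Acta2, Tagln, Myh11, Cnn1, Mylk, Des, Pdgfrb, Rgs5, Cspg4 and Notch3. They were chosen by name, without use of measured values in the rule, and each was found by an exact match of its symbol on 1 of the 31854 rows of the count table. RNA came from epididymal white adipose tissue of mice on a high-fat diet. There were 4 libraries from mice with the S273A knock-in allele of PPAR-gamma, which puts an alanine in place of a serine that is phosphorylated in obese fat (replicates 2, 3, 4 and 6), and 4 from wild-type mice (WT, replicates 1, 2, 3 and 5). The sources used here give neither strain nor age, nor whether each library is a separate animal. The p-values thus speak of the variation among these 8 libraries alone, which may be technical. Total counts ran from 14880239 to 18194889 per library.

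Vascular smooth muscle cells ring arteries and veins, and pericytes sit singly along capillaries. The smooth muscle cells contract through smooth muscle actin and myosin. Endothelial cells recruit both cell types by secreting PDGF-B, which binds the receptor encoded by Pdgfrb, and instruct them by Notch ligands, which bind Notch3. Transcription of the contractile genes is driven by serum response factor (SRF) with its partner myocardin, through a DNA element called the CArG box. In fat, cells of the vessel wall lie next to the progenitors that give rise to adipocytes, and Pdgfrb is expressed in both. PPAR-gamma is best known as the transcription factor that drives adipocyte formation.

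No member differed between the genotypes by more than the spread between libraries. By edgeR's quasi-likelihood test 0 of the 10 members were called at an adjusted p under 0.05, against a background of 0% of the 15667 tested rows, and each member's adjusted p rounded to 1. At an unadjusted p under 0.05 there were also 0 members, against 1.46% of all tested rows. The genotypes overlapped in every member. Of all rows 1.19% had no overlap, with 0.657% higher and 0.53% lower in S273A. Estimates were positive, meaning higher in S273A, for 7 members and negative for 3. Over all tested rows 50.7% were positive. The median log2 fold change of the members was 0.06, beside 0.001 over all tested rows. It was -0.04 without WT 2 and 0.15 without WT 1. DESeq2 and limma-voom also called 0 members. Acta2 had the highest estimate at 0.26, and the lowest was -0.27 for Cnn1.

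Promoter sequences from RefSeq (GRCm38.p6), covering 250 bases before and 50 bases after the annotated gene start, were matched for 7 of the 10 members. Those of Acta2 and Cnn1 are shown because these contractile genes had the highest and the lowest level of the 10, and those of Rgs5 and Notch3 because this pair had the highest correlation across libraries. The CArG box is CC, then 6 letters that are each A or T, then GG, which reads alike on both strands. Capitals mark CArG-like elements, which have a single G or C within that core of 6.
Acta2: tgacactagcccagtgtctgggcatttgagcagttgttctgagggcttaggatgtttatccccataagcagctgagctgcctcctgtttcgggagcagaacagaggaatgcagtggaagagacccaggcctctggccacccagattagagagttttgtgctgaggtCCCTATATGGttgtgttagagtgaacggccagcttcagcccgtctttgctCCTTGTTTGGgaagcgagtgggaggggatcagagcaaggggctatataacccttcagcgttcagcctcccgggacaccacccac
Cnn1: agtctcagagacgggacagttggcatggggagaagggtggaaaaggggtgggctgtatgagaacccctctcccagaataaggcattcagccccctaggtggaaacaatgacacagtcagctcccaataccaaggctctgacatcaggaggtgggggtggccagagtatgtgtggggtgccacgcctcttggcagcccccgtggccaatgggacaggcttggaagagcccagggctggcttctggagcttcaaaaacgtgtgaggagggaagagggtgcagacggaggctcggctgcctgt
Rgs5: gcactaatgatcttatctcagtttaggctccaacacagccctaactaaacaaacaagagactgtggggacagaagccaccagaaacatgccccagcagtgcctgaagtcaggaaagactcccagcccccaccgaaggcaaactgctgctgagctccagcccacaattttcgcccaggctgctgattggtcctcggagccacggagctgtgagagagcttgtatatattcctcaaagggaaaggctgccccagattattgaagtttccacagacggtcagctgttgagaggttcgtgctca
Notch3: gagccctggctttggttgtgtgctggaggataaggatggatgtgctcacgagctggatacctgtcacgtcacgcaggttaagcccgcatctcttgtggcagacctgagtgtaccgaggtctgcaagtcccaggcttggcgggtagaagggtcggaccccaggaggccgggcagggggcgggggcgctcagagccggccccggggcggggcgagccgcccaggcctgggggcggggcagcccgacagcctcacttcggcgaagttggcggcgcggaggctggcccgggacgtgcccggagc
The Acta2 stretch lies on the minus strand at chr19:34255324-34255623 and the Cnn1 stretch on the plus strand at chr9:22099003-22099302. The Rgs5 stretch is on the plus strand at chr1:169655251-169655550 and the Notch3 stretch on the minus strand at chr17:32166841-32167140. Acta2 held 2 CArG-like elements, which start 84 and 34 bases upstream of the RefSeq start. That start lies 217 bases inside the Acta2 gene as GENCODE M21 draws it, so both elements fall within the GENCODE gene span. For Mylk the RefSeq start lies 39740 bases inside the GENCODE span, and for the other 5 genes the starts differ by at most 71 bases. The other 6 promoters held 0. Among all 32851 promoters of this length, 8.5% held such an element. A CArG box with an uninterrupted core, which 1.63% of all promoters held, was found in 0 of the 7. The letters GTGGGAA, which are bound by RBPJ, the DNA-binding partner of Notch, were also found in 0 of the 7 on either strand, against 6.38% of all promoters. These matches describe letters in a short window only.

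Libraries stood apart among the contractile genes and among the others. A score was computed from log2 CPM (read counts relative to library size, scaled by TMM), by centring each gene on its mean of the 8 libraries and averaging over genes. This was done for the 6 contractile members and for Pdgfrb, Rgs5, Cspg4 and Notch3. For the contractile members, WT 1 had a score of 0.36 and the other WT libraries lay between -0.19 and -0.12. Cnn1 has equal weight in this score, though its counts were low: 24 in WT 1 and 13, 7 and 7 in WT 2, 3 and 5. For the other 4 genes, WT 2 had -0.47, the lowest of the 8 libraries. In WT 2 the scores of endothelial markers (-0.35) and adipocyte markers (-0.41) were also the lowest of the 8 libraries, and the score of macrophage markers (0.17) was the highest. All 8 adipocyte, 8 macrophage and 12 endothelial markers were tested and detected. Their summed levels ran from 6760 to 8880 CPM in S273A and 5740 to 9130 CPM in WT for adipocytes, from 3590 to 4080 CPM in S273A and 3820 to 4560 CPM in WT for macrophages, and from 1370 to 1670 CPM in S273A and 1160 to 1620 CPM in WT for endothelium. The part of this makeup in the results was not tested. In RNA from whole tissue, fewer cells of a type and less RNA per cell cannot be told apart.

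The contractile members come first. Acta2 encodes smooth muscle alpha-actin, the main thin-filament actin of vascular smooth muscle. Its row (uc008hgg.2) had 200, 357, 441 and 320 CPM in S273A replicates 2, 3, 4 and 6, against 346, 278, 235 and 242 CPM in WT replicates 1, 2, 3 and 5. Both the lowest and the highest of the 8 values belonged to S273A, replicates 2 and 4. Means were 330 ± 100 CPM in S273A and 275 ± 51.0 CPM in WT (SD, n = 4 each). On the log2 scale S273A was higher by 0.26, with an SE of 0.22 and a 95% confidence interval from -0.23 to 0.74 (unadjusted p of edgeR 0.259). An exact two-sided permutation test of log2 CPM gave p = 0.457. The estimate depended on single libraries: it was 0.44 without S273A replicate 2 (edgeR unadjusted p 0.0181, adjusted p 0.999), 0.39 without WT replicate 1 and 0.09 without S273A replicate 4.

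Tagln encodes transgelin, or SM22-alpha, an actin-binding protein of smooth muscle and a standard early marker of the lineage. Its row (uc009pgs.2) had 18.4, 22.5, 22.3 and 21.2 CPM in the S273A libraries, against 28.2, 18.3, 19.0 and 18.5 CPM in the WT libraries. WT 1 stood above all other libraries and the remaining WT libraries lay close together. The means of 21.1 ± 1.89 CPM in S273A and 21 ± 4.85 CPM in WT were nearly equal, with a log2 fold change of 0.01, an SE of 0.14 and a 95% confidence interval from -0.32 to 0.33. Without WT 1 the estimate was 0.18.

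Myh11, the smooth muscle myosin heavy chain and the most restricted marker of mature smooth muscle, had 22.7, 22.6, 22.9 and 23.4 CPM in S273A (row uc007yhd.2). The WT libraries had 28.9, 18.4, 23.9 and 20.7 CPM, so they lay on both sides of the narrow S273A range. The means were 22.9 ± 0.378 and 23.0 ± 4.53 CPM in S273A and WT, with an estimate of 0.00 on the log2 scale, an SE of 0.12 and a 95% confidence interval from -0.28 to 0.27. The estimate was 0.13 without WT 1 and -0.10 without WT 2.

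Cnn1, calponin, restrains actomyosin in differentiated smooth muscle and was close to the detection limit. The counts themselves were 11 in each of the 4 S273A libraries, against 24, 13, 7 and 7 in WT replicates 1, 2, 3 and 5 (row uc009onv.2). WT 1 again had the highest value. The log2 fold change of -0.27 had a 95% confidence interval from -1.14 to 0.59, the widest of the 10, and turned to 0.21 without WT 1. In folds of S273A over WT the interval ran from 0.453 to 1.51.

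Mylk encodes myosin light chain kinase, which switches on contraction in answer to calcium. It was at 138, 114, 125 and 118 CPM in the S273A libraries, against 131, 105, 126 and 117 CPM in the WT libraries (row uc007zbd.1), ranges that nearly coincide. The mean was 124 ± 10.2 CPM in S273A and 120 ± 11.6 CPM in WT. The fold of S273A over WT was 1.03, with a 95% confidence interval from 0.91 to 1.17.

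Des encodes desmin, the intermediate filament of muscle cells, which is also abundant in pericytes. It had 21.9, 22.2, 24.9 and 29.0 CPM in S273A, against 24.7, 19.7, 23.3 and 25 CPM in WT (row uc007box.2). S273A 6 had the highest value and WT 2 the lowest. The estimate on the log2 scale was 0.08, with a 95% confidence interval from -0.16 to 0.33, and turned to -0.01 without S273A 6. Desmin is also a skeletal muscle protein, and S273A 6 held 237 counts of the fast skeletal myosin gene Myh4, where the other 7 libraries held between 0 and 2. The skeletal and cardiac muscle score was 0.63 in S273A 6 and the other libraries lay between -0.43 and 0.19. Of that list's 12 genes, 11 had a row and 3 were tested, Actn3, Acta1 and Myl1. Its summed level ran from 105 to 190 CPM in S273A and from 110 to 153 CPM in WT. Most of that sum was Acta1, at 141 CPM in S273A 6 and higher in S273A 3 and S273A 4 (176 and 175 CPM). The sum is thus no measure of skeletal muscle alone. S273A 6 was also the highest library for Pdgfrb (206 CPM) and Notch3 (123 CPM), but for none of the other members. Its score of endothelial markers (0.23) was the highest as well. The part of skeletal muscle in the Des value was not tested.

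**Figure D1:**
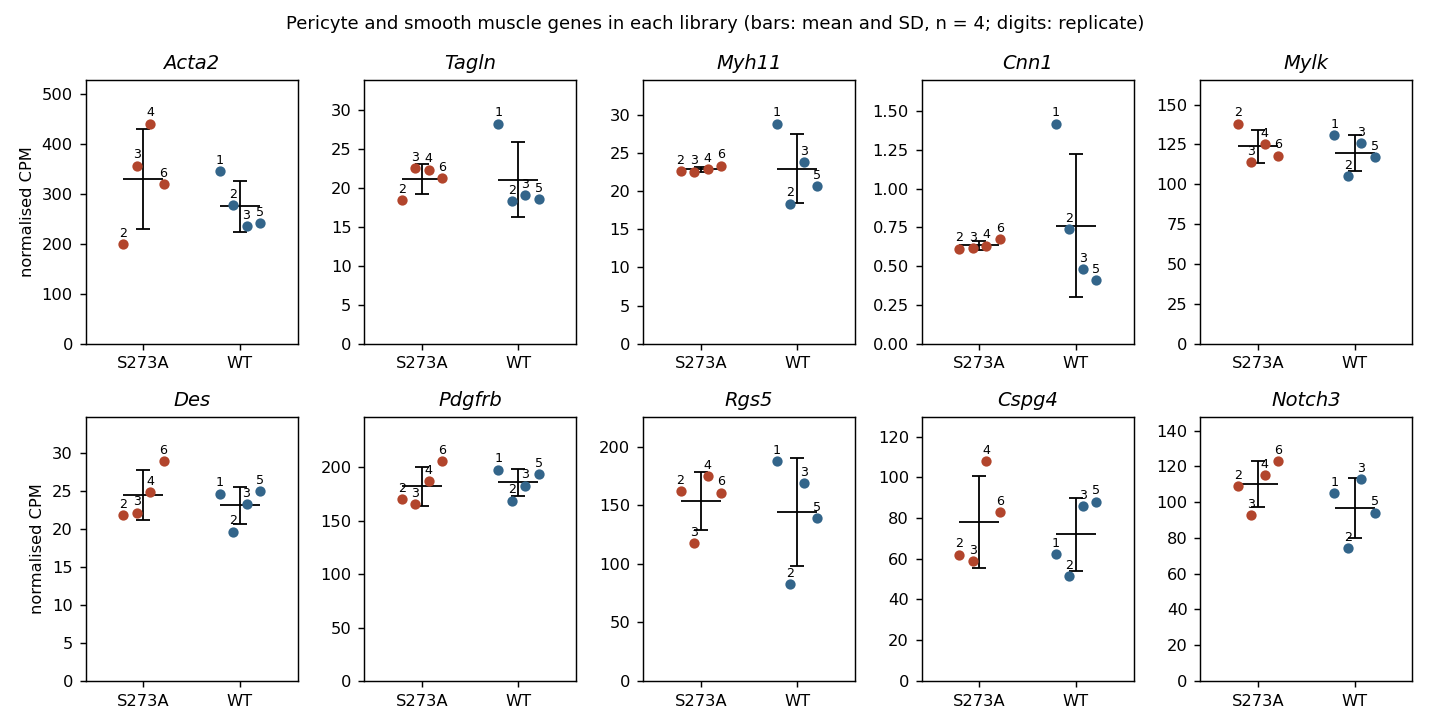
Normalised CPM of each of the 10 genes (vertical axes, linear and starting at 0) in the 4 S273A and the 4 WT libraries; points are libraries with their replicate number, and the lines give mean and SD. Every gene's genotypes overlap, with WT 1 highest for Tagln (28.2 CPM) and WT 2 lowest for Rgs5 (82.5 CPM).

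The other 4 members are surface and signalling proteins of the vessel wall. Pdgfrb encodes the PDGF receptor beta, needed for the recruitment of pericytes. It had 170, 166, 187 and 206 CPM in S273A, against 198, 169, 183 and 194 CPM in WT (row uc008fbk.2). This was the steadiest of the 10 genes: the highest library had 1.24 times the level of the lowest. The means were 182 ± 18.2 CPM in S273A and 186 ± 12.9 CPM in WT, a fold of 0.98 with a 95% confidence interval from 0.866 to 1.11. Pdgfra, the paralogous receptor of fibroblasts and progenitors, was at 239 ± 27.2 CPM in S273A and 250 ± 16.9 CPM in WT.

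Rgs5 encodes a regulator that shuts off G protein signalling and is among the most used pericyte markers. It had 162, 118, 175 and 161 CPM in S273A, against 188, 82.5, 169 and 139 CPM in WT (row uc007dlm.2). WT 1 and WT 2 were the highest and the lowest of the 8 libraries, a 2.28-fold range within 1 genotype. The estimate of 0.09 on the log2 scale, with a 95% confidence interval from -0.41 to 0.60, turned to -0.10 without WT 2 and was 0.25 without WT 1.

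Cspg4 encodes NG2, a proteoglycan of the pericyte surface that is also carried by other immature mesenchymal cells. It was at 62.0, 59.0, 108 and 82.8 CPM in S273A, against 62.4, 51.5, 86.0 and 88.1 CPM in WT (row uc009ptm.1). In both genotypes a low and a high pair of libraries could be seen, so the means of 78.0 ± 22.7 CPM in S273A and 72.0 ± 18.0 CPM in WT have wide errors. The fold of S273A over WT was 1.08 (95% confidence interval from 0.767 to 1.53). Its log2 value of 0.12 turned to -0.08 without S273A 4.

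Notch3 encodes the Notch receptor of vascular smooth muscle and pericytes, which maintains the arterial phenotype. It had 109, 92.7, 115 and 123 CPM in S273A, against 105, 74.5, 113 and 94.2 CPM in WT (row uc008bvx.1). The genotypes overlapped, with WT 2 lowest and S273A 6 highest. Of the 10 members it had the smallest p: means of 110 ± 12.7 CPM in S273A and 96.6 ± 16.6 CPM in WT put S273A higher by 0.19 on the log2 scale, with an SE of 0.13 and a 95% confidence interval from -0.10 to 0.47 (unadjusted p of edgeR 0.18). The exact permutation p was 0.257, where 4 against 4 can give 0.0286 at the lowest. Without WT 2 the estimate was 0.08.

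**Figure D2:**
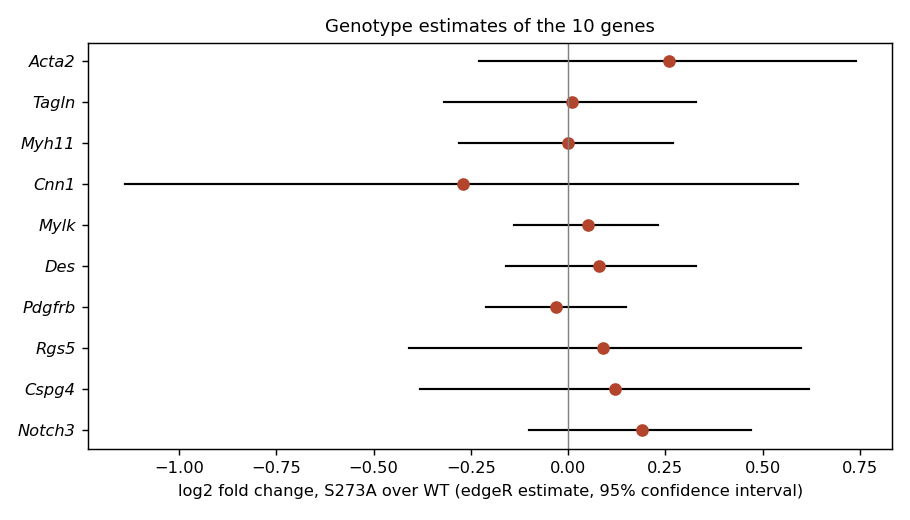
Estimated log2 fold change of S273A over WT for each gene (points) with its 95% confidence interval (lines). All 10 intervals include 0; that of Pdgfrb (-0.21 to 0.15) is the narrowest and that of Cnn1 (-1.14 to 0.59) the widest.

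The members differed in how much they varied between libraries of the same genotype. The within-genotype SD of log2 CPM was 0.15 in the median over all tested rows. It was 0.41 for Rgs5, 0.39 each for Acta2 and Cspg4 and 0.49 for Cnn1, more than in 90.7%, 88.7%, 89.0% and 94.4% of all rows. Pdgfrb (0.12) and Mylk (0.13) lay below the median row. Cnn1 had only 7 to 24 counts per library, where counting error is large.

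Levels were set against each other per length, as RPKM, the CPM divided by the deposited length of the row in kilobases. Acta2 was the highest with 128 ± 38.9 RPKM in S273A and 107 ± 19.8 RPKM in WT, above 98.3% of all tested rows on this scale. Pdgfrb (33.6 ± 3.36 in S273A, 34.3 ± 2.38 RPKM in WT) and Rgs5 (33.9 ± 5.44 in S273A, 31.8 ± 10.1 RPKM in WT) followed and did not differ beyond their spread: Pdgfrb was the higher in 4 of 8 libraries. On the deposited lengths Tagln came next, at a mean of 13.3 RPKM over the 8 libraries, above Notch3 (9.62), Mylk (8.41), Des (6.37) and Cspg4 (6.32 RPKM). The order of the first 3 of these turned with the length used: on GENCODE's exonic lengths the means were 12.8 RPKM for Notch3, 10.8 for Mylk and 10.6 for Tagln, with overlapping ranges. The ranges of neighbours among Notch3, Mylk, Des and Cspg4 overlapped, and Des was above Cspg4 in 5 of 8 libraries. Myh11, at a mean of 3.0 RPKM, was below all of these in every library, and Cnn1, at 0.337 RPKM, was the lowest in every library.

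The contractile genes were thus far from equal in level. Per deposited length, Acta2 was on average 9.50 ± 2.25 times Tagln in S273A and 8.16 ± 0.843 times Tagln in WT. Against Myh11 the ratio was 42.8 ± 13.0 in S273A and 36.1 ± 6.46 in WT (exact permutation p of the log2 ratio 0.486). The ratio to Myh11 ran from 26.2 in S273A 2 to 57.3 in S273A 4, so it varied as much within S273A as Acta2 itself. By comparison the ratio of Tagln to Myh11 was 4.44 ± 0.402 in S273A and 4.40 ± 0.439 in WT. Ratios with Tagln depend on the length used: on GENCODE's exonic lengths the means were 138 RPKM for Acta2 and 10.6 for Tagln. Of the words of 36 bases in the longest Tagln transcript, 52.4% also occur in other genes, so its level is uncertain.

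**Figure D3:**
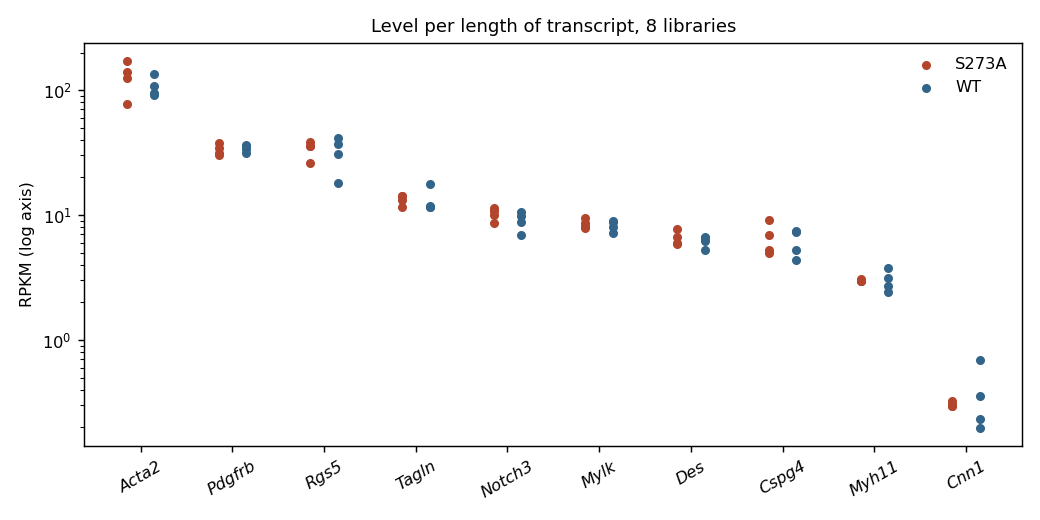
RPKM of each gene (vertical log axis) in the S273A and WT libraries (points), with genes ordered by their mean. Acta2 lies above all others in each library, and Cnn1 below all others.

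Another actin row is of use beside Acta2. Acta1, the skeletal muscle alpha-actin, had 90.2, 176, 175 and 141 CPM in S273A, against 138, 143, 106 and 94.2 CPM in WT, while of the other tested muscle markers Myl1 was at 10.6 CPM in S273A and 10.3 CPM in WT, and Actn3 at 3.15 CPM in S273A and 1.73 CPM in WT. The untested ones with a row had, in all 8 libraries together, 242 counts for Myh4, 97 for Mylpf, 89 for Tnnt3, 62 for Tnni2, 29 for Actc1, 21 for Myh2, 15 for Myh1 and 1 for Myh6. Acta1 and Acta2 were high and low in nearly the same libraries. The ratio of Acta2 to Acta1 per length was 1.38 ± 0.122 in S273A and 1.41 ± 0.177 in WT, with a range of 1.18 to 1.57. Pearson's r of their log2 CPM over the 8 libraries was 0.92 (exact permutation p 0.00117) and Spearman's rho was 0.86 (exact permutation p 0.0107). Without S273A 2 and S273A 4, the libraries farthest from the median of Acta2, r was 0.87. This relation was noticed in the values and then computed on them.

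Reads of 36 bases can be placed on more than 1 actin gene, so sequence sharing was measured in the GENCODE M21 transcripts. Of the 2000 words of 36 bases in the longest Acta2 transcript, 0 occur unchanged in Acta1, and 3.6% match Acta1 with up to 2 mismatches. For the smooth muscle gamma-actin Actg2 the share within 2 mismatches was 2.85%, and for the cytoplasmic actin Actb it was 3.3%. Unchanged words did occur in cytoplasmic actins: 0.6% of the Acta2 words in Actb and 1.05% in Actg1. Actb was at 2400 ± 153 CPM in S273A and 2460 ± 86.1 CPM in WT. Actg1 was at 312 ± 21.7 CPM in S273A and 318 ± 17.9 CPM in WT. Actg2 itself was low, at 0.907 ± 0.135 CPM in S273A and 0.838 ± 0.606 CPM in WT. How the counting treated reads that match several genes is not given in the sources used here, and the part of shared reads in the Acta1 and Acta2 values was not tested.

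Antisense and overlapping genes matter as well, because the libraries do not mark the strand. Acta2 (chromosome 19, 34241090 to 34255590, GRCm38, minus strand), Myh11, Cnn1, Pdgfrb, Rgs5 and Cspg4 had 0 exonic bases in common with other GENCODE genes on the opposite strand. Tagln (chromosome 9, 45929619 to 45936058, minus strand) had 1988 exonic bases and overlapped exons of Pcsk7 and Gm48529, both on the plus strand. The overlaps with these 2 genes added up to 1349 bases, where a base shared with both counts for each. The level of Tagln is therefore uncertain, as to a smaller degree are those of Mylk, Notch3 and Des, which also have antisense partners. The shared bases were 772 for Mylk, likewise added over 2 genes, 488 for Notch3 and 220 for Des. On the same build Myh11 lies on chromosome 16 (14194535 to 14291372, minus strand), Mylk on chromosome 16 (34745210 to 35002420, plus strand) and Cnn1 on chromosome 9 (22099216 to 22109630, plus strand). Des lies on chromosome 1 (75360329 to 75368579, plus strand), as does Rgs5 (169655501 to 169695813, plus strand). Cspg4 lies on chromosome 9 (56865033 to 56899870, plus strand), Notch3 on chromosome 17 (32120820 to 32166852, minus strand) and Pdgfrb on chromosome 18 (61045150 to 61085061, plus strand). Deposited lengths and GENCODE exonic lengths differed in both directions. Notch3 had 10729 deposited and 8089 exonic bases and Mylk 14487 and 11263, while Tagln had 1586 deposited and 1988 exonic bases and Cnn1 2075 and 2736. Acta2 had 2572 deposited and 2196 exonic bases.

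The 10 genes were also compared with each other across libraries. Of the 45 pairs, 41 had a positive correlation of log2 CPM, with a median Pearson's r of 0.42. The median was 0.59 among Pdgfrb, Rgs5, Cspg4 and Notch3, 0.36 among the 6 contractile genes and 0.28 between these sets, differences that were not tested. No pair passed an adjusted p under 0.05 over the 45 pairs. The points share a library and its mixture of cells, so these values describe the 8 libraries.

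The highest correlation was that of Rgs5 with Notch3, at r = 0.90 (exact permutation p 0.00551, adjusted p 0.0826) and rho = 0.62 (exact permutation p 0.115, adjusted p 0.431). It rested on WT 2 and S273A 3, without which r was 0.47. Des and Pdgfrb had r = 0.89 (exact permutation p 0.00139, adjusted p 0.0625) and rho = 0.86 (exact permutation p 0.0107, adjusted p 0.231), and r was 0.93 without WT 2 and S273A 6. Mylk followed Rgs5, with r = 0.86 (exact permutation p 0.00384, adjusted p 0.0826) and rho = 0.83 (exact permutation p 0.0154, adjusted p 0.231), and r was 0.91 without WT 2 and S273A 2. Acta2 was closest to Tagln, with r = 0.70 (exact permutation p 0.047, adjusted p 0.235) and rho = 0.74 (exact permutation p 0.0458, adjusted p 0.412), and r was 0.79 without S273A 2 and S273A 4. With Rgs5, Notch3 and Mylk its r was only 0.10, 0.13 and -0.20.

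**Figure D4:**
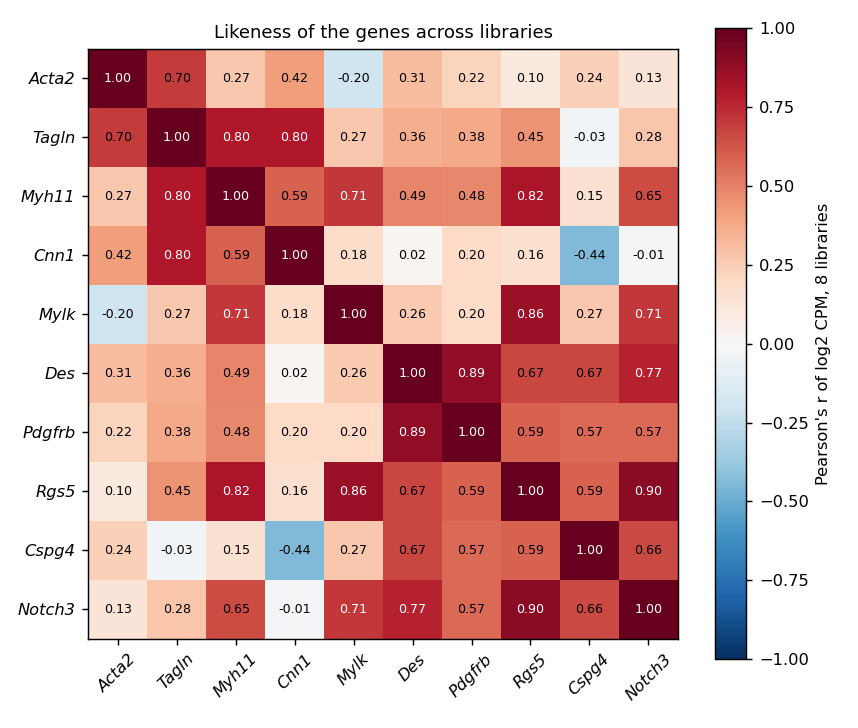
Pearson's r of log2 CPM over the 8 libraries for each pair of the 10 genes, from -1 (blue) to 1 (red). Rgs5, Notch3 and Mylk form pairs of 0.71 to 0.90, while Acta2 has 0.70 with Tagln and -0.20 with Mylk.

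Marker lists of the vessel wall and of its neighbours were set beside the members. Correlations of the 10 members with 7 list scores gave 70 relations, none with an adjusted p under 0.05. Acta2 and Tagln each had r = 0.87 with the other contractile genes (exact permutation p 0.00697 and 0.00444, adjusted p 0.061 and 0.0538). Their rho values with that list were 0.81 and 0.74 (exact permutation p 0.0218 and 0.0458), and r was 0.80 and 0.89 without S273A 4 and WT 1. With endothelial markers, Notch3 had r = 0.95 (exact permutation p 0.00122, adjusted p 0.0538) and rho = 0.83 (exact permutation p 0.0154), with r at 0.78 without WT 2 and S273A 6. Rgs5 had r = 0.90 with endothelial markers (exact permutation p 0.00412, adjusted p 0.0538) and rho = 0.64 (exact permutation p 0.0962), with r at 0.90 without WT 2 and S273A 6. With the other pericyte and mural markers Rgs5 had r = 0.93 (exact permutation p 0.00538, adjusted p 0.0538) and rho = 0.55 (exact permutation p 0.171), and r was 0.28 without WT 2 and S273A 3. Rgs5 had r = 0.89 with adipocyte markers (exact permutation p 0.00883, adjusted p 0.0687) and rho = 0.69 (exact permutation p 0.0694), which rested on WT 2 and S273A 3: without them r was 0.13. Mylk ran against macrophage markers, with r = -0.92 (exact permutation p 0.00218, adjusted p 0.0538) and rho = -0.88 (exact permutation p 0.00724), and r was -0.77 without S273A 2 and WT 2. Cspg4 had r = 0.82 with fibroblast and progenitor markers (exact permutation p 0.0129, adjusted p 0.0824), and r was 0.84 without S273A 2 and S273A 4. Its rho with that list, 0.90 (exact permutation p 0.00456, adjusted p 0.25), was the highest of the 70. With the other pericyte and mural markers Cspg4 had r = 0.60, and r was -0.37 without WT 2 and S273A 3.

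**Figure D5:**
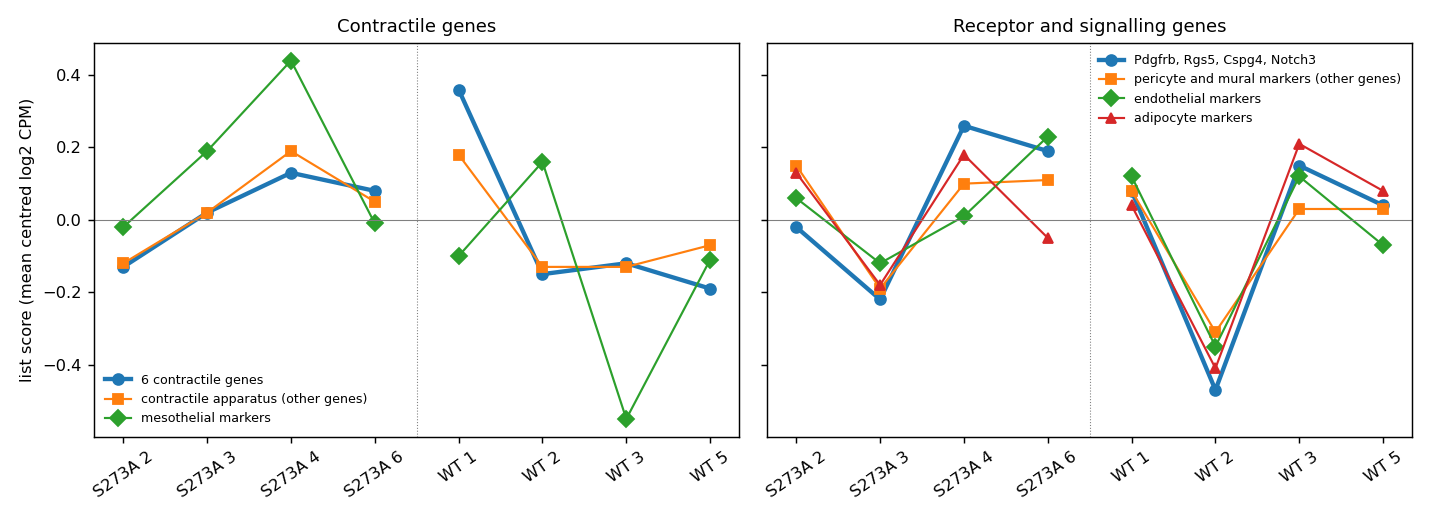
Scores (mean centred log2 CPM) by library for the 6 contractile genes beside 2 other lists (left) and for Pdgfrb, Rgs5, Cspg4 and Notch3 beside 3 other lists (right); the dotted line parts S273A from WT. WT 1 has the highest contractile score (0.36), and WT 2 has the lowest score in each list of the right panel.

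The genes whose pattern was most like that of the members were sought among 13177 other rows whose mean log2 CPM was 1 or more. For the score of Pdgfrb, Rgs5, Cspg4 and Notch3, those with the highest Pearson's r included G6pdx, Numbl, Cd81, Angptl4, Sparcl1, Fads2 and Fam189a2, with r between 0.97 and 0.98 over the 8 libraries. As many as 230 rows had an r above 0.9, so this pattern was a common one in these libraries. Without WT 2 and S273A 3 the r of these genes lay between 0.77 and 0.94. Sparcl1, a matricellular protein gene, was at 214 CPM in S273A and 205 CPM in WT, and Angptl4, the lipoprotein lipase inhibitor, at 512 CPM in S273A and 482 CPM in WT. For the contractile score 9 rows had an r above 0.9. They included Pank2, Cadps2, Ifit3b, Ttc19, Fip1l1 and Ctgf, with r between 0.91 and 0.93. Ctgf encodes a matrix-associated growth factor and was at 21.3 CPM in S273A and 22.4 CPM in WT. Without WT 1 and S273A 4, r was 0.68 for Ctgf, 0.62 for Cadps2 and 0.78 for Ttc19. For Ifit3b, Pank2 and Fip1l1 it was 0.88, 0.9 and 0.96. The likeness rested in part on the low counts of Cnn1: against the score without Cnn1, r was 0.76 for Ctgf, 0.77 for Fip1l1, 0.80 for Cadps2, 0.88 for Pank2 and Ttc19 and 0.89 for Ifit3b.

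Other genes of the same machinery were read from lists. Of 23 further contractile genes 21 were tested, and 0 rose and 0 fell at an adjusted p under 0.05. There were 16 positive and 5 negative estimates, which ran from -0.32 to 0.46 around a median of 0.06. Kcnmb1 and Casq2 were too low to be tested. The smallest p belonged to Pdlim3, a muscle LIM protein, at 2.75 ± 0.923 CPM in S273A and 1.98 ± 0.441 CPM in WT, and to Csrp1, a smooth muscle LIM protein, at 131 ± 7.11 and 121 ± 12.4 CPM in S273A and WT. Tpm2, a tropomyosin, had 3.94 ± 1.10 and 3.15 ± 0.855 CPM in S273A and WT. Itga8, an integrin subunit of contractile cells, had the lowest estimate of the list (-0.32), at 1.12 ± 0.387 CPM in S273A and 1.41 ± 0.402 CPM in WT. The median of the list was 0.01 without S273A 4 or without WT 2, and 0.13 without WT 1.

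Of 21 other pericyte and mural cell markers all were tested and 0 were called in either direction, with 17 positive and 4 negative estimates and a median of 0.09. Tbx18, a transcription factor of mural cells, had 13.6 ± 0.535 CPM in S273A and 11.9 ± 1.44 CPM in WT (log2 fold change 0.19, SE 0.10, edgeR unadjusted p 0.0766). Steap4, a metalloreductase of mural cells that adipocytes also express, had 588 CPM in S273A 2, and the other S273A libraries had 312 to 372 CPM, against 326 to 357 CPM in WT. Abcc9, a subunit of the pericyte potassium channel, was at 66.0 ± 11.2 CPM in S273A and 58.5 ± 11.7 CPM in WT, and Art3 at 56.3 ± 11.8 CPM in S273A and 50.2 ± 6.37 CPM in WT. The median of this list was 0.03 without S273A 2 or without WT 2, 0.15 without WT 1 and 0.17 without S273A 3. Endothelial markers had 11 positive estimates of 12 and a median of 0.09, with 0 called. That median was 0.00 without S273A 6, -0.01 without WT 2, 0.14 without WT 1 and 0.16 without S273A 3 or without WT 3.

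The list of PDGF and Notch pathway genes had 0 called of 18, with 10 positive and 8 negative estimates and a median of 0.00. The Notch ligand Jag2 was at 17.8 ± 2.47 CPM in S273A and 15.9 ± 2.66 CPM in WT, and the Notch target Hes1 at 8.22 ± 1.47 and 7.33 ± 0.923 CPM in S273A and WT. The receptor Notch4 was at 74.6 ± 11.6 CPM in S273A and 67.9 ± 9.33 CPM in WT, and Notch1 at 231 ± 7.64 CPM in S273A and 240 ± 18.3 CPM in WT. Without 1 library the median of this list ran from -0.03 (without WT 2) to 0.04 (without S273A 3 or WT 3). Among 12 genes for control of the myosin light chain 0 were called, with 4 positive and 8 negative estimates. Rgs2, which damps contraction by vasoconstrictors, had 38.7 ± 4.07 CPM in S273A and 42.7 ± 2.72 CPM in WT.

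In the list of SRF and its partners 0 of 12 were called, and 9 estimates were positive, with a median of 0.07. Srf itself had 50.2, 54.6, 54.3 and 52.5 CPM in S273A, against 50, 48.0, 45.6 and 50 CPM in WT. Every S273A library lay above every WT library. Rows that were higher in this way made up 0.657% of all tested rows. The log2 fold change of Srf was 0.13 (SE 0.05, edgeR unadjusted p 0.0396, adjusted p 1). Myocd, which encodes myocardin, had 1.67, 2.25, 2.18 and 1.97 CPM in S273A, against 1.48, 1.88, 1.37 and 1.53 CPM in WT, with a log2 fold change of 0.36 (SE 0.18, edgeR unadjusted p 0.0741). S273A 2 and WT 2 made the genotypes of Myocd overlap. Elk1, an ETS partner of SRF, had 20.3 ± 1.78 CPM in S273A and 18.2 ± 1.03 CPM in WT, and Csrp2, a LIM protein of smooth muscle, had 11.2 ± 1.79 and 9.58 ± 0.703 CPM in S273A and WT. The median of the list ran from 0.04 (without S273A 2) to 0.10 (without S273A 3 or S273A 6).

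Markers of neighbouring cells give the setting of these values. Genes of 1 list share libraries and cells, so their estimates are not independent. Of all tested rows 50.7% had a positive estimate. Fibroblast and progenitor markers had 4 positive and 8 negative estimates of 12 (median -0.07), adipocyte markers 7 and 1 of 8 (median 0.05) and macrophage markers 1 and 7 of 8 (median -0.12). Single libraries moved these medians. That of fibroblasts was 0.02 without S273A 3 and between -0.08 and -0.02 without any 1 of the others. That of adipocytes was -0.06 without WT 2, -0.01 without S273A 2, 0.00 without S273A 4 and 0.11 without S273A 3 or WT 3. That of macrophages was -0.05 without S273A 2. Mesothelial markers, genes of the cell layer that covers the depot, had 14 positive estimates of 14 with a median of 0.29, and their summed level ran from 243 to 336 CPM in S273A and from 170 to 280 CPM in WT. Their median was 0.19 without S273A 4 or without WT 3, and 0.40 without WT 2. Acta2 had r = 0.65 (exact permutation p 0.074, adjusted p 0.247) and rho = 0.71 (exact permutation p 0.0576) with the mesothelial score, and r was 0.31 without WT 3 and S273A 4. The part of these cells in its level was not tested. Of 12 epididymis and testis markers 9 had a row and 0 were tested, with Lcn8, Lcn9 and Spag11b at 0 counts in all libraries. Adam7 had 20 counts in S273A 2 and 0 in the others. Red blood cell markers had 6 positive estimates of 6 tested, of 8 listed, with a median of 0.60 and their highest score in S273A 6. That median was 0.15 without S273A 6, 0.39 with limma-voom and -0.23 with the replicate block. The genotype estimate of the block fit comes from replicates 2 and 3 alone.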

How the data were processed

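Per the labels' protocols, ribosomal RNA was removed, cDNA was made with a kit that does not mark the strand, and tagmented libraries were sequenced as paired reads of 36 bases. The authors deposited raw read counts per gene, with a column of row lengths in bases, another quantity used here only for RPKM. The submitters' processing notes name the build mm10 and the tools HISAT2 2.0.5, featureCounts 1.5.2, Picard 2.9.2, edgeR 3.3.0 and bcl2fastq 2.20.0, with no roles.

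From the counts, edgeR 4.0.16 in R 4.3.3 was run on all 8 libraries: filterByExpr with its defaults (15667 of 31854 rows kept), TMM scaling, a robust glmQLFit and glmQLFTest for genotype with no covariate, and Benjamini-Hochberg adjustment over all tested rows. All 10 members passed the filter. Symbols were matched exactly; where a symbol had several rows, the row with the highest total count was used. Intervals come from the F statistic. Scores and correlations use log2 CPM with a prior count of 2. Correlations were tested over all 40320 pairings. Libraries of 1 genotype differed by more than sampling noise (lowest chi-square per degree of freedom 7.01). Alternatives were DESeq2 1.42.0, limma-voom (limma 3.58.1), RLE and upper quartile scaling, no filter, a non-robust fit, summed rows, a replicate block and leaving out each library.

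Named genes were the 10 members, up to 4 genes of smallest p per list, paralogues of members, and for each of 2 scores the 8 rows of highest Pearson's r among those whose mean log2 CPM was 1 or more. Some genes that the rule names are not reported here. Untested muscle markers and Adam7 were named after their values were seen. Members and lists were chosen with earlier results of these data known. Positions come from GENCODE M21 on GRCm38, promoters from RefSeq.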

Additional observations from a re-analysis of the deposited data

Results flagged for a closer look

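In groups of 4 libraries, Dixon's criterion marks a library far from the others. It was applied to 48 groups and marked 7, where chance marks about 5% of groups. The groups share genes and libraries and are not independent, so no conclusion is drawn from that count.

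Tagln in WT 1 was at 28.2 CPM, with the other WT libraries at 18.3 to 19.0 CPM. The score of the 6 contractile members in WT 1 was 0.36, with the other WT libraries at -0.19 to -0.12. Cnn1, with few counts, has equal weight in that score. WT 2 was low in 3 scores: -0.31 for the other pericyte and mural markers (0.03 to 0.08 in the remaining WT libraries), -0.18 for the PDGF and Notch pathway (0.03 to 0.06) and -0.43 for skeletal and cardiac muscle markers (-0.08 to -0.03). S273A 3 had a score of -0.19 for the other pericyte and mural markers (0.10 to 0.15 in the remaining S273A libraries). S273A 4 had a score of 0.03 for the control of the myosin light chain (-0.03 to -0.02).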

How the results depend on the processing

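Under all 16 alternatives 0 members were called. Over all rows, DESeq2 called 1 row and edgeR without S273A replicate 4 called 1 row, Gdf3 in both cases. The fits without 1 library thus ranged from 0 to 1. At an unadjusted p under 0.05 edgeR had 229 and limma-voom 223 of 15667 tested rows. DESeq2, run without that filter, had 216 of 22694. The median log2 fold change of the members ran from -0.04 (without WT replicate 2) to 0.15 (without WT replicate 1), and from 0.06 to 0.09 under the other alternatives. Signs of single members were not stable: leaving out 1 library gave -0.06 to 0.18 for Tagln, -0.48 to 0.21 for Cnn1, -0.01 to 0.09 for Mylk, -0.01 to 0.13 for Des, -0.09 to 0.02 for Pdgfrb, -0.10 to 0.25 for Rgs5 and -0.08 to 0.24 for Cspg4. Acta2 (0.09 to 0.44) and Notch3 (0.08 to 0.27) stayed positive under these 8 fits, and no member's adjusted p fell below 0.999 under any alternative. The cause of these shifts was not tested beyond the library left out.

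Only replicate numbers 2 and 3 occur in both genotypes, and nothing says that they pair libraries: deviations of same-numbered libraries had correlations of -0.08 and -0.22. With the replicate block, 0 rows and 0 members were called, 94 rows had an unadjusted p under 0.05, the median of the members was 0.09, Acta2 was 0.07, and Cnn1 (0.02) and Cspg4 (-0.14) changed sign. Counts limit Cnn1 most, at 7 to 24 per library.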
